A study of Oryctolagus cuniculus with 15 samples.

Results

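Fibronectin (FN1), tenascin C (TNC) and 8 other genes for matricellular proteins were followed in rabbit corneal keratocytes, the resident cells of the corneal stroma. The members were chosen by gene symbol (FN1, TNC, POSTN, SPARC, THBS1, THBS2, THBS3, SPON1, CTHRC1 and CRISPLD2), and all 10 were present among the 23428 protein-coding genes of the count table. Bulk RNA-seq covered 15 libraries, 3 for each of 5 conditions. All cells were first-passage keratocytes from New Zealand white rabbit eyes, grown for 6 days in serum-free medium with bovine type I collagen, and each library came from pooled dishes or matrices. The 3 libraries of a condition came from separate experiments, but whether libraries of different conditions share an experiment is not given in the sources used here. In 2DC, cells were plated on a collagen-coated dish. In 2DF they were plated on top of a fibrillar collagen matrix, and in 3DF they were embedded within such a matrix at 100000 cells per matrix. 3DF_50 held 50000 cells per matrix. The paper states that the effective density of cells was lower in 3D than in 2D, so density and embedding differ together between them. It also reports that a change of density within 3D had minimal effects. 2DC_L was a collagen-coated dish to which lysis buffer was added directly, whereas the other 4 conditions were incubated in collagenase and hyaluronidase before lysis. The eyes came from a supplier, and which animals contributed to which library is not given in the sources used here.

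Matricellular proteins are secreted into the extracellular matrix (ECM), where they bind cells, collagen and growth factors and tune adhesion, fibril assembly and signaling more than they bear load. Fibronectin, which cells assemble into fibrils through integrins, forms much of the provisional matrix of a healing corneal wound, and tenascin C and periostin are typically laid down with it. SPARC, the thrombospondins and the spondins act on collagen assembly, angiogenesis and cell spreading.

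Between 14626982 and 31804255 reads were counted per library. Levels are given as FPKM (fragments per kilobase of gene, scaled to the size of the library), which can be compared between genes. Differences are log2 fold changes ± SE from an edgeR quasi-likelihood F test on the counts (two-sided, n = 3 libraries per condition), and a gene was called differentially expressed (DEG) when its fold change reached 1 on the log2 scale in either direction with a p of 0.05 or less after Benjamini–Hochberg adjustment. The 7 keratocyte markers with values, stromal proteoglycans among them, were detected in every condition and summed to between 20130 and 43110 FPKM per library. None was a DEG for 3DF vs. 2DC. For 2DF vs. 2DC, B3GNT7 was a higher DEG, at 1.16 ± 0.18 (edgeR adjusted p = 0.00395). For 3DF_50 vs. 2DC_L none was a DEG, with log2 fold changes from -0.93 (OGN) to 0.73 (B3GNT7). Since these are bulk libraries, fewer cells of a type and less RNA per cell cannot be told apart. Library names carry a prefix (E2 to E10) whose meaning the labels do not give, and it is shared by some libraries of different conditions.

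At the level of the 10 genes, SPARC dominated. It ranked 6 of 23428 genes by mean FPKM over the 15 libraries and alone took 0.560% to 2.16% of the counted reads. FN1 ranked 78, THBS1 ranked 127 and THBS2 ranked 195, whereas CRISPLD2 was at 1238 and TNC at 3473. SPON1, THBS3, CTHRC1 and POSTN were low, with ranks from 7079 to 9761, and CTHRC1 rested on as few as 17 reads in a library.

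**Figure D1:**
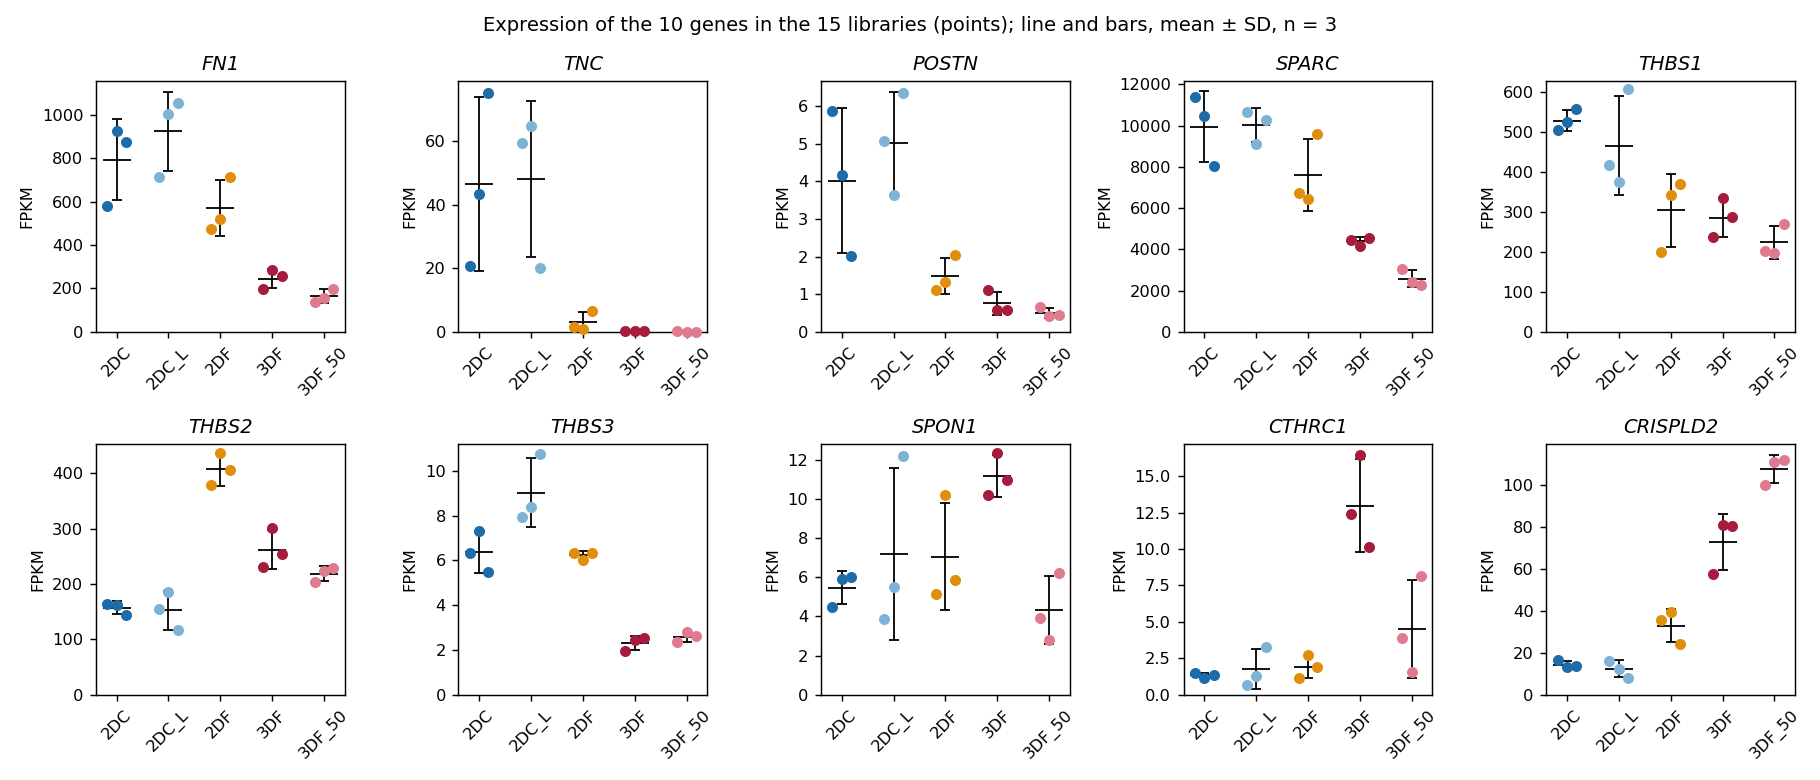
FPKM of each gene (y axis, linear, a separate scale per panel) in each of the 15 libraries by condition (x axis), with the mean and SD of the 3 libraries as a line and bars. The 3DF and 3DF_50 libraries lie below the 3 other conditions for FN1, TNC, SPARC and THBS3, and above all 2DC and 2DF libraries for CRISPLD2.

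The comparison of 3DF vs. 2DC asked how cells surrounded by fibrillar collagen differ from cells on a coated dish. In 3DF, the wound-matrix genes FN1, TNC and POSTN fell 3.25-fold, 117-fold and 5.29-fold, SPARC fell 2.28-fold and THBS3 fell 2.78-fold. SPON1 rose 2.03-fold, CTHRC1 rose 9.59-fold and CRISPLD2 rose 5.05-fold. Thus 5 of the 10 members were lower and 3 higher, where 4.32% of the 13493 genes tested were lower DEGs and 3.24% were higher ones. The median log2 fold change of the members was -1.04, and that of all genes tested was 0.012. THBS1 and THBS2, with adjusted p-values of 0.00753 and 0.0111, changed by less than the fold that a DEG requires. For all 10 members the 3DF and 2DC libraries did not overlap in FPKM, but the share of all genes tested for which this also holds was not counted.

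**Figure D2:**
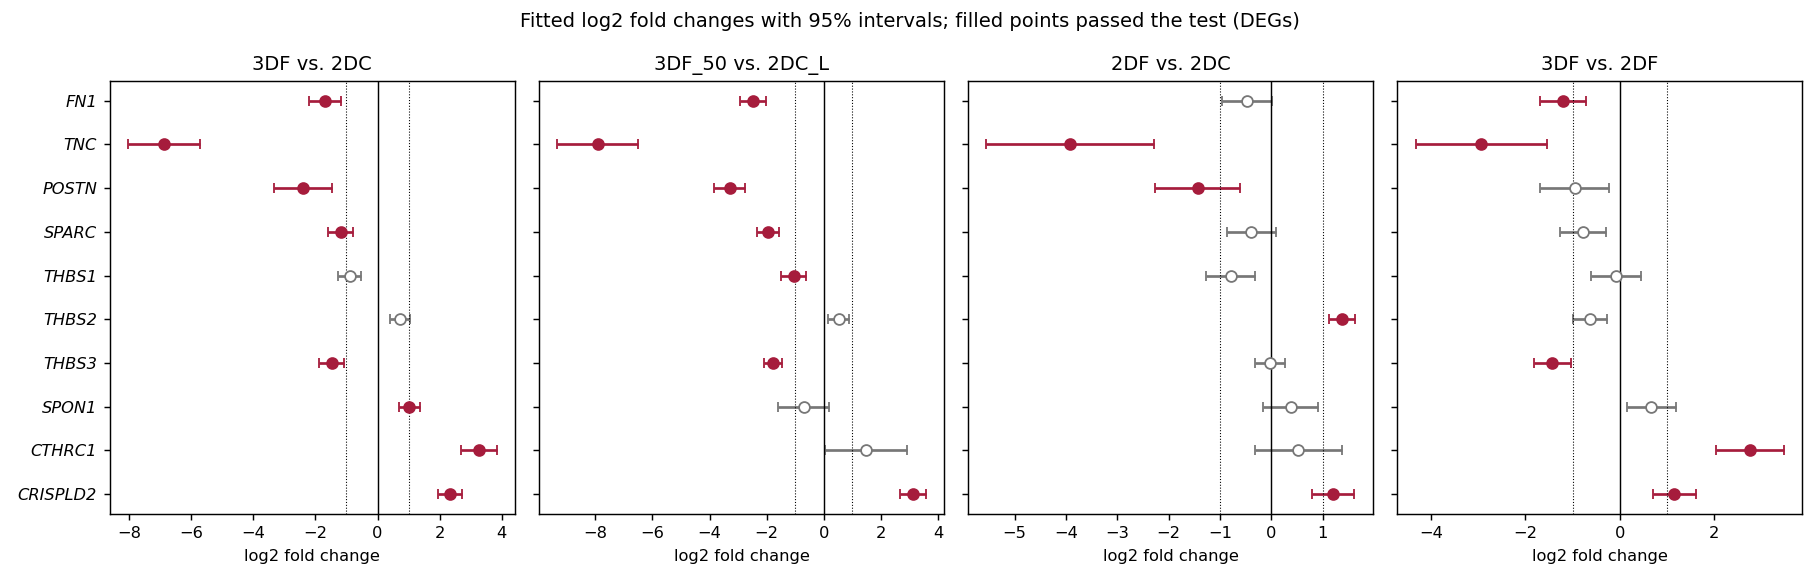
Fitted log2 fold changes of the 10 genes (x axis, a separate scale per panel) with 95% confidence intervals in 4 comparisons, where filled points are DEGs and dotted lines mark a log2 fold change of 1 in either direction. FN1, TNC, POSTN, SPARC and THBS3 are filled on the left of both 3D against coated-dish panels, and CRISPLD2 is filled on the right of all 4 panels.

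FN1 (chr7:156703386-156770768, minus strand, oryCun2) was one of the most abundant transcripts on the dish. Its FPKM was 581, 923 and 875 in the 3 libraries of 2DC, 473, 519 and 715 in 2DF, and 196, 284 and 258 in 3DF. Its values were 714, 1003 and 1052 in 2DC_L, and in 3DF_50 they were 139, 155 and 199. The order of the means was 2DC_L, 2DC, 2DF, 3DF and 3DF_50, and only 2DF and 3DF were neighbours whose libraries did not overlap. The fold change was -1.70 ± 0.23 for 3DF vs. 2DC (edgeR adjusted p = 0.00189) and -1.21 ± 0.22 for 3DF vs. 2DF (edgeR adjusted p = 0.0107), both on the log2 scale. For 2DF vs. 2DC the log2 fold change of FN1 was -0.47, with a 95% interval from -0.96 to 0.017, and it did not pass (edgeR adjusted p = 0.18). FN1 was called in each of the 6 fits that left out 1 library, in both comparisons with 3DF.

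TNC (Un0001:12560675-12654800, plus strand), a large glycoprotein that loosens adhesion to fibronectin, had the widest range of the 10 genes. It was at 20.7, 43.4 and 75.2 FPKM in 2DC and at 59.4, 64.8 and 20.1 FPKM in 2DC_L. On fibrillar collagen it was at 1.60, 0.951 and 6.62 FPKM in 2DF, and in 3DF at 0.422, 0.441 and 0.325 FPKM. In 3DF_50 it was at 0.421, 0.0459 and 0.142 FPKM, from 7 to 61 reads per library. Hence TNC was high in each of the 6 coated-dish libraries and no higher than 0.441 FPKM in each of the 6 embedded ones, with 2DF between them and overlapping neither. The highest mean was 237 times the lowest.

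The log2 fold change of TNC was -6.88 ± 0.51 for 3DF vs. 2DC (edgeR adjusted p = 0.000161), -3.92 ± 0.72 for 2DF vs. 2DC (edgeR adjusted p = 0.00851) and -2.94 ± 0.62 for 3DF vs. 2DF (edgeR adjusted p = 0.0213). These 3 comparisons share libraries and are not independent of one another. The call for 3DF vs. 2DF was lost without 3DF replicate 1 or without 3DF replicate 3, and in limma on log2(FPKM + 1) its log2 fold change was -1.28 (adjusted p = 0.153). Each 3DF value of TNC is below the added 1, which makes that fold change smaller. TNC also varied within 2DC, where the highest library was 3.63 times the lowest, and within 2DF, where that ratio was 6.97.

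POSTN (Un0021:553962-588861, minus strand), which encodes periostin, a fasciclin-domain protein that promotes collagen crosslinking, had the lowest mean of the 10 genes over the 15 libraries. Its FPKM was 5.86, 4.16 and 2.03 in 2DC, 5.06, 3.62 and 6.34 in 2DC_L, and 1.12, 1.32 and 2.03 in 2DF. In 3DF it was 1.12, 0.581 and 0.587, and in 3DF_50 it was 0.659, 0.430 and 0.438. POSTN followed the same order of means as FN1 and TNC. The log2 fold change was -2.40 ± 0.41 for 3DF vs. 2DC (edgeR adjusted p = 0.0062), with the call kept in all 6 fits that left out a library. On fibrils in 2D, the value for POSTN against 2DC was -1.43 ± 0.37 (edgeR adjusted p = 0.0332), but this call was kept in only 2 of 6 such fits, those without 2DC replicate 3 or without 2DF replicate 3. For 3DF vs. 2DF, POSTN did not pass, at -0.95 with a 95% interval from -1.69 to -0.22 (edgeR adjusted p = 0.13), although it was a DEG without 3DF replicate 1.

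SPARC (chr3:33117409-33137847, minus strand), a collagen-binding glycoprotein that regulates fibril assembly, remained abundant in all conditions. It was at 11381, 10448 and 8032 FPKM in 2DC, at 6747, 6431 and 9598 FPKM in 2DF, and at 4434, 4162 and 4565 FPKM in 3DF. In 2DC_L it was at 10665, 9094 and 10275 FPKM, and in 3DF_50 at 3064, 2408 and 2283 FPKM. The embedded cells were below every 2D library, and 3DF_50 was below every 3DF library. The log2 fold change was -1.19 ± 0.17 for 3DF vs. 2DC (edgeR adjusted p = 0.00305). The value for 2DF vs. 2DC was -0.39, with a 95% interval from -0.86 to 0.092, and for 3DF vs. 2DF it was -0.79, with a 95% interval from -1.27 to -0.30 (edgeR adjusted p = 0.0644), neither being a DEG.

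The thrombospondins, multimeric glycoproteins that bind calcium and cell-surface receptors, did not move together. THBS1 (chr17:32567508-32583128, minus strand), an activator of latent TGFβ, was at 505, 524 and 557 FPKM in 2DC, 199, 344 and 370 FPKM in 2DF, and 237, 334 and 288 FPKM in 3DF. In 2DC_L it was at 417, 376 and 607 FPKM, and in 3DF_50 at 203, 198 and 271 FPKM. Each coated-dish library was thus above each library with fibrillar collagen. Relative to 2DC, THBS1 had a log2 fold change of -0.89 ± 0.16 in 3DF and of -0.79 ± 0.21 in 2DF (edgeR adjusted p = 0.00753 and 0.0364), neither reaching the fold of a DEG. Without 3DF replicate 2, THBS1 was a DEG for 3DF vs. 2DC. For 3DF vs. 2DF the log2 difference was -0.085, with a 95% interval from -0.62 to 0.45.

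THBS2 (Un0355:63255-97485, plus strand), which, like THBS1, carries the type 1 repeats linked to inhibition of angiogenesis, went the other way. It was at 164, 163 and 144 FPKM in 2DC, at 379, 437 and 405 FPKM in 2DF, and at 231, 301 and 254 FPKM in 3DF. The 2DC_L libraries had 154, 186 and 117 FPKM of THBS2, and those of 3DF_50 had 204, 224 and 228 FPKM. The 2DF libraries were the highest, the embedded cells lay between, and the coated dishes were lowest, with no overlap between 2DF, 3DF and 3DF_50 or between these and the coated dishes. THBS2 rose 2.60-fold for 2DF vs. 2DC (log2 fold change 1.38 ± 0.11, edgeR adjusted p = 0.000247) and was called in all 6 fits that left out a library. Relative to 2DC, its log2 fold change in 3DF was 0.73 ± 0.14, and relative to 2DF it was -0.63 ± 0.16 (edgeR adjusted p = 0.0515), neither being a DEG.

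The balance of the THBS1 and THBS2 transcripts therefore differed between dish and fibrils. Within each library, THBS2 FPKM divided by THBS1 FPKM was 0.326, 0.311 and 0.259 in 2DC and 0.371, 0.495 and 0.192 in 2DC_L. It was 1.90, 1.27 and 1.10 in 2DF, 0.978, 0.901 and 0.881 in 3DF, and 1.00, 1.13 and 0.842 in 3DF_50. Each of the 9 libraries with fibrillar collagen was above each of the 6 coated-dish libraries. That split was fixed by the levels given above and adds no further evidence. Neither gene overlapped between coated-dish and fibrillar libraries, and the genes differed in opposite directions. The mean ratio was 0.298 ± 0.0347 (SD, n = 3) in 2DC, 1.42 ± 0.423 in 2DF and 0.920 ± 0.0514 in 3DF. This ratio was formed after the levels were seen and is given without a test.

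**Figure D3:**
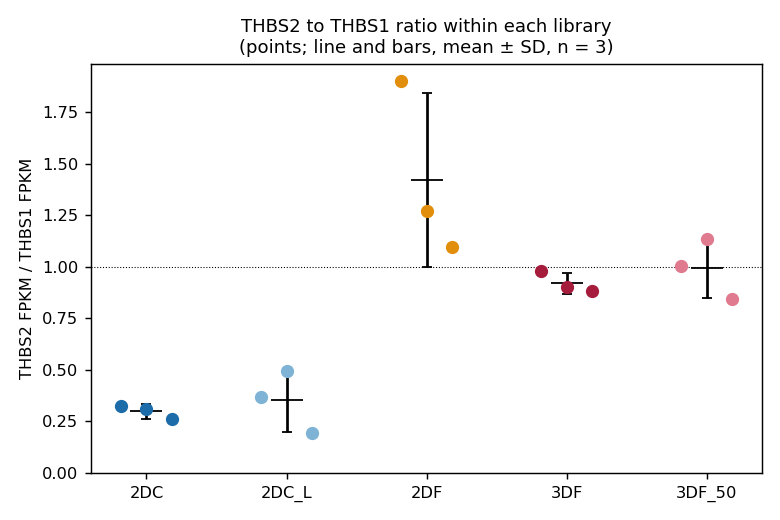
THBS2 FPKM divided by THBS1 FPKM (y axis, linear) within each library, by condition (x axis), with the mean and SD of 3 libraries as a line and bars and a dotted line at equal levels. All 6 coated-dish libraries are below 0.5, and the 9 libraries with fibrillar collagen are between 0.842 and 1.90.

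THBS3 (chr13:37490535-37499836, plus strand), a thrombospondin that lacks the type 1 repeats, separated embedded cells from all others. It was at 6.33, 7.33 and 5.46 FPKM in 2DC, at 6.35, 6.00 and 6.33 FPKM in 2DF, and at 1.94, 2.45 and 2.53 FPKM in 3DF. The 2DC_L libraries had 7.92, 8.38 and 10.8 FPKM of THBS3, and those of 3DF_50 had 2.36, 2.80 and 2.60 FPKM. The level on top of fibrils was thus within the range of the coated dish, whereas the level inside the matrix was below every 2D library. THBS3 had a log2 fold change of -1.48 ± 0.18 for 3DF vs. 2DC (edgeR adjusted p = 0.00116) and -1.43 ± 0.17 for 3DF vs. 2DF (edgeR adjusted p = 0.00163), each called in all 6 fits that left out a library. Against 2DC, the value for 2DF was -0.028, with a 95% interval from -0.32 to 0.26.

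CRISPLD2 (Un0213:248632-280713, plus strand), a secreted protein with LCCL and cysteine-rich secretory protein domains, rose stepwise over the substrates. Its FPKM was 16.4, 13.1 and 13.6 in 2DC, 35.8, 39.2 and 24.0 in 2DF, and 57.6, 80.9 and 80.5 in 3DF. In 2DC_L it was 16.2, 12.5 and 8.18, and in 3DF_50 it was 100, 111 and 112. Only 2DC and 2DC_L overlapped, and the embedded libraries with fewer cells were the highest. CRISPLD2 changed by 2.34 ± 0.17 on the log2 scale for 3DF vs. 2DC (edgeR adjusted p = 0.000161), 1.21 ± 0.18 for 2DF vs. 2DC (edgeR adjusted p = 0.00316) and 1.15 ± 0.20 for 3DF vs. 2DF (edgeR adjusted p = 0.00981). The last of these calls was lost without 2DF replicate 3, and the other two were kept in all fits that left out a library.

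CTHRC1 (chr3:118775500-118791597, plus strand), a secreted protein with a short collagen-like repeat that is produced by repairing tissue, was highest in 3DF. Its FPKM was 1.49, 1.15 and 1.36 in 2DC, 1.12, 2.75 and 1.92 in 2DF, and 12.4, 16.4 and 10.1 in 3DF. CTHRC1 was at 0.680, 1.27 and 3.28 in 2DC_L, and in 3DF_50 it was 3.86, 1.56 and 8.16. Every 3DF library was above all other libraries, while 3DF_50 overlapped both 2DC_L and 2DF. The log2 fold change was 3.26 ± 0.25 for 3DF vs. 2DC (edgeR adjusted p = 0.000184) and 2.75 ± 0.33 for 3DF vs. 2DF (edgeR adjusted p = 0.00146), each called in all 6 fits that left out a library. The value for 2DF vs. 2DC was 0.53, with a 95% interval from -0.32 to 1.39. In 2DC this gene had 22 to 38 reads per library, and in 3DF 177 to 322.

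SPON1 (chr1:155695734-156009237, plus strand) encodes spondin 1, an ECM protein that guides axons and cell adhesion. It was at 4.49, 5.91 and 6.00 FPKM in 2DC, at 5.14, 10.2 and 5.84 FPKM in 2DF, and at 10.2, 12.3 and 11.0 FPKM in 3DF. In 2DC_L it was at 3.89, 5.50 and 12.2 FPKM, and in 3DF_50 at 3.90, 2.81 and 6.24 FPKM. The 3DF libraries were above those of 2DC and of 3DF_50, yet 1 library of 2DC_L was within their range, and the highest library of 2DF lay just under the lowest of 3DF. For 3DF vs. 2DC the log2 fold change of SPON1 was 1.02 ± 0.15 (edgeR adjusted p = 0.00286), just past the fold of a DEG. The call was lost without 2DC replicate 1 or without 3DF replicate 2. It was also lost in a fit of all 5 conditions with the library prefix, at 0.45 (edgeR adjusted p = 0.15), and in limma on log2(FPKM + 1), at 0.92. In the fit with the prefix, 3DF rests on its E6 and E7 libraries, since E8 occurs only in 3DF. For 3DF vs. 2DF, SPON1 was not a DEG at 0.67, with a 95% interval from 0.14 to 1.19 (edgeR adjusted p = 0.139), but it passed without 2DF replicate 2.

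For 2DF vs. 2DC, in which cells were on top of a fibrillar matrix or on a coated dish, THBS2 and CRISPLD2 rose and TNC and POSTN fell. Hence 2 of the 10 members were higher and 2 lower, against 2.04% and 2.93% of the 13258 genes tested. Their median log2 fold change was -0.21, beside 0.0045 for all genes. FN1, SPARC, THBS1, THBS3, SPON1 and CTHRC1 were not DEGs here. The paper names the difference in stiffness between 2DF and 2DC as a possible confounder. It also cites earlier work that found no significant change of phenotype in serum-free keratocytes over 2D substrates of differing stiffness. Stiffness and fibrils cannot be told apart in these libraries. For 3DF vs. 2DF, in which both conditions had fibrils and the cells were inside or on top, CTHRC1 and CRISPLD2 rose and FN1, TNC and THBS3 fell. These were 2 higher and 3 lower members, where 2.09% and 1.69% of 13195 genes were DEGs, and the median of the members was -0.71. Effective cell density also differed between 3DF and 2DF, and it cannot be told apart from the position of the cells. In both comparisons the conditions shared no library prefix, so prefix and condition cannot be told apart within them. With the prefix as a term in a fit of all 5 conditions, 2DF rests on its E5 library alone, since E9 and E10 occur only in 2DF. That fit therefore cannot show whether the calls depend on the prefix. In it, the log2 fold changes for 2DF vs. 2DC were -1.67 for TNC, -1.35 for POSTN, 1.19 for THBS2 and 1.38 for CRISPLD2. Those for 3DF vs. 2DF were -1.08 for FN1, -4.54 for TNC, -1.23 for THBS3, 1.61 for CTHRC1 and 1.09 for CRISPLD2.

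The effect of cell density was measured as 3DF vs. 3DF_50. With edgeR, 0 of the 10 members were DEGs, where 0.316% of 13285 genes were higher and 0.135% lower in 3DF. Without adjustment, 5 members had p-values under 0.05 in edgeR, but the share of all genes under that limit was not counted. SPARC, FN1, SPON1 and CTHRC1 were higher in 3DF by 0.74, 0.55, 1.34 and 1.49 on the log2 scale, with 95% intervals from 0.35 to 1.12, 0.12 to 0.99, 0.79 to 1.90 and 0.47 to 2.50. CRISPLD2 was lower in 3DF by a log2 value of -0.59, with an interval from -0.93 to -0.25. The adjusted p of SPON1 was 0.0522 in edgeR, and DESeq2 called SPON1 and CTHRC1, at adjusted p-values of 1.56e-05 and 0.0129. SPON1 was also a DEG in edgeR without 3DF replicate 1 or without 3DF_50 replicate 3. Thus the calls for cell density depended on the test.

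The effect of the digestion step was measured as 2DC vs. 2DC_L, where 0 of the 10 members were DEGs with edgeR or with DESeq2, against 0.257% and 0.00735% of 13608 genes that were higher and lower in 2DC. Only THBS3 had an unadjusted p under 0.05 in edgeR (0.00932), at a log2 fold change of -0.49 with a 95% interval from -0.83 to -0.16. The intervals of the others included no change, but they were wide for some members, from -1.24 to 1.12 for TNC and from -1.51 to 0.89 for CTHRC1. SPARC was bounded more closely, from -0.38 to 0.36, as was THBS2, from -0.33 to 0.42. Within the prefixes E2 and E3, which both conditions hold, the log2 ratio of 2DC to 2DC_L was -1.52 and -0.58 for TNC, 0.28 and 0.47 for THBS1, and -0.32 and -0.20 for THBS3. The other 7 members lay between -0.30 and 0.21 in both, apart from CTHRC1, which was at 1.02 in E2.

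A second set of libraries gave the contrast of embedded cells with a coated dish without using 2DC or 3DF. For 3DF_50 vs. 2DC_L, FN1 fell 5.60-fold, TNC 241-fold, POSTN 9.79-fold, SPARC 3.87-fold, THBS1 2.08-fold and THBS3 3.46-fold, and CRISPLD2 rose 8.67-fold. These were 6 lower members and 1 higher, where 8.47% and 5.05% of 13321 genes were lower and higher DEGs. The log2 fold changes were -2.49 ± 0.20 for FN1, -7.91 ± 0.63 for TNC and 3.12 ± 0.20 for CRISPLD2 (edgeR adjusted p = 1.22e-05, 1.15e-05 and 3.11e-06). THBS1, at -1.05 ± 0.20, lost its call without 2DC_L replicate 3, 3DF_50 replicate 1 or 3DF_50 replicate 2. The digestion step also differed between these conditions, so that its effect and that of the matrix cannot be told apart here.

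SPON1 and CTHRC1 were not DEGs for 3DF_50 vs. 2DC_L. The log2 fold change of SPON1 was -0.71, with a 95% interval from -1.59 to 0.17, and that of CTHRC1 was 1.47, with an interval from 0.051 to 2.89 (edgeR adjusted p = 0.0879). CTHRC1 passed with DESeq2 at 1.40 (adjusted p = 0.0396) and in edgeR without 2DC_L replicate 3 or without 3DF_50 replicate 2. CTHRC1 also passed in the edgeR fit of all 5 conditions with the library prefix, at 1.65 (edgeR adjusted p = 0.00663), and with the replicate number as a block. SPON1 was a lower DEG without 2DC_L replicate 1.

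FN1, TNC, POSTN, SPARC, THBS3 and CRISPLD2 were DEGs in the same direction in both 3DF vs. 2DC and 3DF_50 vs. 2DC_L, which have no library in common. Their libraries share prefixes all the same, E2 and E3 between 2DC and 2DC_L, E3 between 2DC and 3DF_50, and E7 between 3DF and both 2DC_L and 3DF_50, so the comparisons may not be independent. This was 6 of 10 members, beside 6.01% of the 13157 genes tested in both. The difference between the 2 effects was tested in a fit of all 5 conditions, in which 0.228% of 14036 genes passed and none of the members did with edgeR. For SPON1 the difference of the log2 fold changes was 1.75, with a 95% interval from 0.69 to 2.80 (edgeR adjusted p = 0.175), and for CTHRC1 it was 1.79, with an interval from 0.21 to 3.38 (edgeR adjusted p = 0.324). Without adjustment, the intervals of FN1, SPARC, SPON1, CTHRC1 and CRISPLD2 did not include 0, but the share of all genes for which this holds was not counted.

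For 3DF_50 vs. 2DF, FN1, TNC, POSTN, SPARC and THBS3 fell and CRISPLD2 rose. These were 5 lower and 1 higher members, against 3.01% and 1.44% of 13201 genes. The log2 fold changes were -1.78 ± 0.20 for FN1, -3.91 ± 0.78 for TNC, -1.54 ± 0.21 for SPARC and 1.72 ± 0.16 for CRISPLD2 (edgeR adjusted p = 0.00022, 0.00705, 0.00068 and 5.48e-05). TNC and POSTN were not DEGs in this comparison in limma on log2(FPKM + 1), where the added 1 exceeds each of their 3DF_50 values. In the fit with the library prefix, which rests on the E5 library of 2DF alone, their log2 fold changes were -5.12 and -1.40. THBS2 was lower in every 3DF_50 library than in every 2DF library, with a log2 fold change of -0.88 ± 0.12 that did not reach the fold of a DEG (edgeR adjusted p = 0.000894). SPON1, at -0.69, and CTHRC1, at 1.25, were not DEGs (edgeR adjusted p = 0.17 and 0.169), although SPON1 passed without 3DF_50 replicate 3 and CTHRC1 without 3DF_50 replicate 2.

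Where libraries of different conditions shared a prefix, the members could be compared within it, with 1 library on each side and no test. Within E6, the log2 ratio of 3DF to 2DC was -2.15 for FN1, -7.43 for TNC, -0.84 for POSTN, -0.85 for SPARC, -1.46 for THBS3, 0.77 for SPON1, 3.10 for CTHRC1 and 2.09 for CRISPLD2. All had the sign of the fitted value, but this was fixed in advance. Both libraries are part of that fit, and no 3DF library overlapped a 2DC library for any member. Within E3 and E7, the log2 ratios of 3DF_50 to 2DC_L were -2.86 and -2.39 for FN1, -7.23 and -7.02 for TNC, -1.82 and -2.02 for THBS3, and 2.99 and 3.77 for CRISPLD2. Within E5, the ratio of 3DF_50 to 2DF was -1.63 for FN1, -4.83 for TNC and 1.62 for CRISPLD2 on this scale. The signs of these E3, E7 and E5 values were likewise fixed, since the genes did not overlap between the conditions compared. SPON1 and CTHRC1 did overlap in both comparisons. SPON1 was at -0.50 in E3, -0.95 in E7 and -0.88 in E5, and CTHRC1 was at 1.52, 1.30 and 0.42.

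The E7 library was the highest of its condition in 2DC_L, 3DF and 3DF_50 for SPON1 and CTHRC1, and also for FN1 and THBS1. Within E7, the log2 ratio of 3DF to 2DC_L was 0.035 for SPON1, whereas it was 2.30 for CTHRC1 and 3.31 for CRISPLD2. The part of the prefix in the SPON1 result for 3DF vs. 2DC was not tested beyond the fit with the prefix given above.

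**Figure D4:**
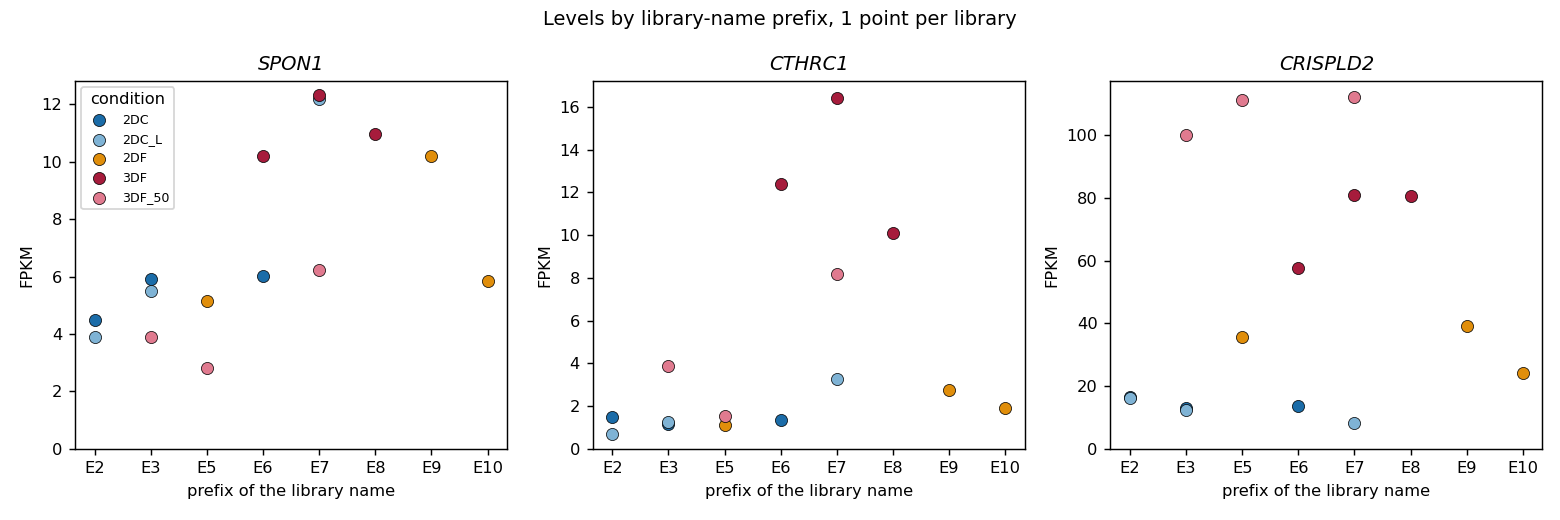
FPKM of SPON1, CTHRC1 and CRISPLD2 (y axis, linear, a separate scale per panel) in each library, by the prefix of the library name (x axis) and condition (colour). For SPON1 the 2DC_L and 3DF libraries of E7 lie at 12.2 and 12.3, for CTHRC1 the 3DF libraries are the 3 highest, and for CRISPLD2 the 6 embedded libraries are above all others in every prefix.

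Over the 15 libraries, the levels of FN1 and CRISPLD2 on the log2(FPKM + 1) scale had a Pearson r of -0.956, those of FN1 and THBS3 an r of 0.929, and those of FN1 and SPARC an r of 0.923. These describe 5 conditions of 3 libraries each and were not tested. The CRISPLD2 to FN1 ratio of FPKM had means of 0.0193 in 2DC, 0.0616 in 2DF, 0.297 in 3DF and 0.667 in 3DF_50. Among 9687 expressed genes, those with the pattern most like FN1 were LOXL2 (r = 0.980), a collagen-crosslinking oxidase, FBN1 (r = 0.977), which encodes the microfibril protein fibrillin 1, and LIMA1 (r = 0.975), an actin-binding protein. Those most like TNC were AP2M1 (r = 0.987), an endocytic adaptor subunit, COL5A3 (r = 0.984), a type V collagen chain, and GAP43 (r = 0.983). For SPON1 the closest genes were DIAPH2 (r = 0.911), a formin, and CCND2 (r = 0.906), a D-type cyclin.

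Of 32 other matricellular genes listed, 29 had values. For 3DF vs. 2DC, 25 were tested, of which 8 fell and 2 rose, with a median log2 fold change of -0.51. Of all genes tested, 4.32% were lower and 3.24% higher DEGs. CTGF, a CCN family protein, fell from 185 ± 89.3 to 9.32 ± 3.15 FPKM (SD, n = 3), with a log2 fold change of -4.32 ± 0.40. TGFBI, a fasciclin-domain protein like periostin that is mutated in corneal dystrophies, fell from 261 ± 23.2 to 65.3 ± 7.59 FPKM. The paralog of CRISPLD2, CRISPLD1, rose from 25.5 ± 5.00 to 76.3 ± 11.3 FPKM, at 1.57 ± 0.18 on the log2 scale (edgeR adjusted p = 0.000808). The other gene that rose was SPOCK3, which was called in only 1 of the 6 fits that left out a library. The others that fell were SMOC1 and SMOC2, which are of the SPARC family, CYR61, ECM1, LGALS3 and FNDC1.

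CRISPLD1 was not a DEG on fibrils in 2D. It was at 25.0 ± 4.27 FPKM in 2DF and its log2 fold change for 2DF vs. 2DC was -0.027 ± 0.16, whereas that of CRISPLD2 was 1.21 ± 0.18. The difference between the paralogs was not tested. For 3DF vs. 2DF, 24 of the list were tested, of which 2 rose (SPARCL1 and CRISPLD1) and 7 fell (SMOC1, SPOCK2, CYR61, CTGF, TGFBI, LGALS3 and FNDC1). Among all genes tested there, 2.09% were higher and 1.69% lower DEGs. For 2DF vs. 2DC only SPARCL1, a SPARC-related protein, was a DEG among 26 tested, at -1.18 ± 0.24 (edgeR adjusted p = 0.0131). The shares of all genes were 2.04% higher and 2.93% lower. CYR61, an immediate-early CCN gene, was at 979 ± 42.0 FPKM in 2DC and 102 ± 12.4 FPKM in 2DC_L (edgeR adjusted p = 5.38e-06). It thus differed with the digestion step, and the log2 fold change of CYR61 for 3DF vs. 2DC was -2.33 but for 3DF_50 vs. 2DC_L it was 0.54.

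For 3DF_50 vs. 2DC_L, 25 of the list were tested, of which 12 fell and 1 (WISP3) rose, beside 8.47% and 5.05% of all genes tested. WISP3, at 0.293 ± 0.00269 against 0.127 ± 0.0374 FPKM, was called in 0 of the 6 edgeR fits that left out a library and had an adjusted p of 0.115 in DESeq2. For 3DF_50 vs. 2DF, 9 of 25 fell, beside 3.01% of all genes tested. For 3DF vs. 3DF_50 only FNDC1, which holds fibronectin type III domains, was a DEG of 25, higher in 3DF at 1.57 ± 0.23 (edgeR adjusted p = 0.0317). There 0.316% of all genes tested were higher in 3DF. FNDC1 was kept in 3 of the 6 fits that left out a library.

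Among the receptors of these proteins, 2 syndecans moved in opposite directions. Of 22 receptor genes listed, 21 had values, and for 3DF vs. 2DC 1 of 18 tested rose and 2 fell. Of all genes tested, 3.24% rose and 4.32% fell as DEGs. The syndecan SDC4, a co-receptor for fibronectin, rose from 37.3 ± 3.04 to 77.9 ± 6.43 FPKM, and SDC1 fell from 60.4 ± 2.71 to 16.1 ± 3.79 FPKM. LRP8 fell from 3.51 ± 0.582 to 1.35 ± 0.0800 FPKM. The same 3 genes were the DEGs of 17 tested for 2DF vs. 2DC, with SDC4 at 92.4 ± 19.6 and SDC1 at 29.8 ± 5.73 FPKM in 2DF. In that comparison 2.04% of all genes tested were higher DEGs and 2.93% lower. There SDC1, at -1.01, and LRP8, at -1.01 on the log2 scale, were close to the fold of a DEG and kept their calls in 4 and 3 of the 6 fits that left out a library. The integrin subunits tested, ITGA3, ITGA4, ITGA5, ITGAV, ITGB1, ITGB3, ITGB5, ITGB7 and ITGB8, had log2 fold changes from -0.70 (ITGB1) to 0.60 (ITGB8) for 3DF vs. 2DC, with ITGA5 at -0.45 and ITGA4 at 0.41, and none was a DEG. For 3DF vs. 2DF, ITGA4, an integrin subunit, rose from 3.20 ± 1.08 to 7.09 ± 1.49 FPKM and CD36, a thrombospondin receptor, from 0.0306 ± 0.0381 to 0.664 ± 0.689 FPKM, and these calls were kept in 3 and 2 of the 6 fits that left out a library. For 3DF_50 vs. 2DC_L, SDC1, LRP8 and ANXA2 fell among 17 tested, and for 3DF_50 vs. 2DF only SDC1 did. The shares of all genes that were lower DEGs were 8.47% and 3.01%.

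Markers of other cells moved with some of these results. The 9 corneal epithelial markers with values summed to between 0.302 and 1.12 FPKM per library in 2DC and between 7.62 and 13.0 FPKM in 3DF, and 4 of 5 tested were higher DEGs for 3DF vs. 2DC, with KRT12 and DSG3 at 0 in 2DC. In 2DC_L they summed to 0.255 to 0.963 FPKM, in 2DF to 0.814 to 6.18 FPKM and in 3DF_50 to 0.0837 to 6.00 FPKM. The E7 library had the highest sum of 2DC_L, 3DF and 3DF_50, as it was the highest for CTHRC1, SPON1, FN1 and THBS1. Of the myofibroblast markers, ACTA2 and TAGLN fell for 3DF vs. 2DC, as FN1 and TNC did, and their list of 4 summed to between 0.747 and 1.11 FPKM in 3DF and between 5.18 and 7.64 FPKM in 2DC. Immune markers summed to at most 7.66 FPKM in any library, with CD163 at 0 in every condition, and the vascular marker PECAM1 was at 0 in 3DF_50. The corneal endothelial list, of which ZP4 was at 0 in every condition, summed to 409 to 510 FPKM in 2DC and 227 to 287 FPKM in 3DF, with COL8A2 the only DEG. The 5 vascular endothelial markers summed to 33.3 to 62.6 FPKM in 2DC and 117 to 119 FPKM in 3DF, with KDR rising and TIE1 falling. The part of these cells in the results for the 10 genes was not tested.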

How the data were processed

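RNA-seq of 15 libraries was analysed, 3 per condition, grouped by the library labels. The authors' deposited counts are whole reads per protein-coding gene, aligned to oryCun2 with HISAT2 2.0.5 and counted with featureCounts 1.5.0-p3; strand handling is not given in the sources used here. The authors' deposited FPKM values scale these counts by gene length and library size. No member overlapped another gene of the table. Each of 7 pairs of conditions was tested over all genes with edgeR 4.0.16 in R 4.3.3 (quasi-likelihood F test on TMM-scaled libraries, with the low counts removed by filterByExpr at min.count = 10, and the pair alone in each fit). The SE is the size of the log2 fold change divided by the square root of F. The study's methods used DESeq2; DESeq2 1.42.0 and limma 3.58.1 were alternatives here. Within-prefix ratios used TMM-scaled CPM plus 0.1. The replicates of a condition are separate experiments. Their numbers were not taken to pair libraries, since in no comparison did the deviations of same-numbered libraries correlate by over 0.1 for all 3 numbers. All 3 correlations were positive for 2DC vs. 2DC_L and for 3DF_50 vs. 2DC_L. Some of these libraries share a prefix (2DC and 2DC_L replicates 1 and 2, 2DC_L and 3DF_50 replicate 3). Counts of replicates differed by more than counting noise. The tests were tested on simulated data.

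The members and the gene lists were chosen with earlier results of these data known. FN1, TNC, POSTN, SPON1, THBS2, CTHRC1 and CRISPLD2 are also genes that the study names for their response, so their tests here are not independent evidence. Genes named are the members, the DEGs of the lists, and for FN1, TNC and SPON1 the genes with the highest Pearson r of log2(FPKM + 1). Sequences were not used, and some listed genes without a match in the table are not analysed here.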

Additional observations from a re-analysis of the deposited data

How the results depend on the processing

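The count of members called was within 1.5 times of the value given for 3DF vs. 2DC, 2DC vs. 2DC_L, 3DF_50 vs. 2DC_L and 3DF_50 vs. 2DF under all 12 other settings and each left-out library. It was not for 2DF vs. 2DC and 3DF vs. 2DF with the library prefix in a fit of all 5 conditions. In that fit 2DF rests on its E5 library alone, since E9 and E10 occur only in 2DF. It therefore cannot show whether the 4 and 5 calls depend on the prefix, and its values for 3DF_50 vs. 2DF have the same limit. For 3DF vs. 3DF_50, in place of 0, the count of members called was 2 with DESeq2 and 1 without a filter on low counts. It was 1 with all 5 conditions in the fit and 0 to 1 when a library was left out, and the cause was not tested.

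Same-numbered libraries correlated by -0.15 to 0.322, and no comparison had all of its correlations over 0.1 or every library closest to that of its own number, though 5 of 6 were in 2DC vs. 2DC_L and in 3DF_50 vs. 2DC_L. With the replicate number as a block, 3DF vs. 3DF_50 had 1 member called (SPON1), 2DF vs. 2DC had 3 (POSTN was lost) and 3DF_50 vs. 2DC_L had 8 (CTHRC1 was added), and it changed no other call of a member.

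Without TMM, the median over all genes of the log2 fold change moved by 0.175 for 3DF vs. 2DC, 0.106 for 2DF vs. 2DC, -0.161 for 3DF vs. 3DF_50, 0.355 for 3DF_50 vs. 2DC_L and 0.226 for 3DF_50 vs. 2DF. THBS3 then turned to 0.0823 for 2DF vs. 2DC, and for 3DF_50 vs. 2DC_L CTHRC1 passed in place of THBS1. With the prefix, THBS1 turned to 0.185 for 3DF vs. 2DF and CTHRC1 to 0.118 for 2DC vs. 2DC_L, and for 3DF vs. 2DC THBS1 passed in place of SPON1. CTHRC1 also passed there for 3DF_50 vs. 2DC_L. In that fit 3DF rests on its E6 and E7 libraries, since E8 occurs only in 3DF. No value that reversed was called.

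Leaving out a library gave log2 fold changes of -0.128 to 0.0837 for THBS3 in 2DF vs. 2DC and -0.314 to 0.0798 for THBS1 in 3DF vs. 2DF. For 2DC vs. 2DC_L it gave -0.593 to 0.292 for TNC, -0.688 to 0.0191 for POSTN, -0.119 to 0.126 for SPARC, -0.119 to 0.214 for THBS2, -0.679 to 0.213 for SPON1, -0.717 to 0.456 for CTHRC1 and -0.00138 to 0.466 for CRISPLD2. Low counts limit TNC and POSTN in the embedded cells and CTHRC1 on the dish, where 7 to 130 reads per library stand behind a value.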
